A study of Mus musculus with 78 samples.

Results

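In mouse liver, 10 transcripts that mark lymphocytes were followed: Cd3e, Cd3g, Cd8a and Cd2 for T cells, Nkg7, Ccl5 and Gzma for cytotoxic lymphocytes, and Cd79a, Cd79b and Jchain for the B lineage. The genes were taken by symbol from the deposited count table, and all 10 were found among its 43629 genes. The study sequenced liver RNA from mice under treatments or mutations that lengthen life, in 78 libraries that form 26 groups of 3. UM-HET3 mice of both sexes, a stock from a cross of several strains, were taken at 6 months of age after 2 months of treatment. They were untreated or given 1000 ppm acarbose, 42 ppm rapamycin, the plant extract mixture Protandim (1200 ppm) or the steroid 17-alpha-estradiol (14.4 ppm) in the diet, or they were fed 40% less (calorie restriction, CR). Other UM-HET3 mice of both sexes were taken at 12 months after 8 months untreated, on 1000 ppm acarbose, on 14 ppm rapamycin or on CR of 40%. All other groups held males only. At 14 months of age, C57BL6/J mice had eaten 0.12% methionine (methionine restriction, MR) or, as controls, 0.86% methionine for 12 months. Growth hormone receptor knockout (GHRKO) mice of 5 months came from the (C57BL6/JxBALB/cByJ)/F2 cross and Snell dwarf mice of 5 months from the (PW/JxC3H/HeJ)/F2 cross, each with littermate controls. The UM-HET3, GHRKO and Snell mice ate Purina 5LG6 and the C57BL6/J mice a Research Diets diet.

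Lymphocytes are a minority of liver cells, next to the hepatocytes that supply most of its RNA. CD3 epsilon and CD3 gamma are signalling chains of the T cell receptor complex, CD8 alpha is a coreceptor of cytotoxic T cells, and CD2 is an adhesion and costimulation receptor of T and natural killer (NK) cells. NKG7 is a membrane protein of cytotoxic granules, granzyme A a protease stored in them, and CCL5 a chemokine that draws T cells and monocytes. CD79A and CD79B form the signalling part of the B cell receptor, and the J chain joins immunoglobulin A and M into polymers in plasma cells. Rapamycin inhibits the kinase mTOR and is used as an immunosuppressant. In bulk tissue, fewer cells of a type and less RNA per cell cannot be told apart.

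Promoter stretches are shown of the member that fell under methionine restriction and receptor knockout (Jchain) and of the member with the lowest fitted value under rapamycin at 12 months (Gzma). Each is the 120 bases before the RefSeq start of the gene on GRCm38.p6, 5′ to 3′ on the strand of the gene, which is the minus strand for both. Jchain lies at chr5:88527898-88528017 and Gzma at chr13:113100982-113101101. Capitals mark the reverse complement of the RUNX motif TGTGGT.
Jchain: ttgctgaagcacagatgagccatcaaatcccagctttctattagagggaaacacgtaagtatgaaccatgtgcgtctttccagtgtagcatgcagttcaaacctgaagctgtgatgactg
Gzma: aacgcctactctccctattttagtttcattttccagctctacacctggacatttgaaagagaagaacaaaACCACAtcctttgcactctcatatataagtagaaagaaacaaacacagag
Promoters were found in the table for 7 of the 10 members, not for Cd2, Ccl5 and Cd79b. The upstream stretches were searched on both strands for 5 motifs. The B cell motifs, the octamer ATTTGCAT and the palindromic EBF motif, were in 0 of the 7 members and in 1.6% and 0.779% of all 32851 promoters. The ETS core AGGAAG was in 3 members (Cd79a, Nkg7 and Cd3e) and in 29.5% of all promoters. The RUNX motif was in 2 members (Nkg7, and Gzma 50 bases before the start) and in 14.0% of all promoters. The exact TATA box string TATAAA was in 0 members and 12.4% of all promoters. Variants of the TATA box, such as the tatataag in the Gzma stretch, were not searched, so this does not show that the members lack one.

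Libraries held 15521588 to 37778510 assigned counts, and hepatocyte markers summed to between 60360 and 235000 CPM (counts scaled to library size) in every library. Beside this the members were sparse, with median counts per library from 5 (Cd8a and Gzma) to 40.5 (Jchain). Gzma had 0 counts in 7 libraries, Cd8a in 5, and Cd3g, Cd2 and Nkg7 in 2 each. One library stood apart: among the untreated females of 12 months, replicate 1 was the highest of its group for all 10 members, with 157 counts of Ccl5 against 28 and 27 and 388 of Jchain against 45 and 54. Replicate 3 of the 12-month acarbose males was likewise the highest of its group for all 10, with 97 counts of Ccl5 against 15 and 15. In 9 libraries, markers of pancreas, adrenal gland, kidney or skeletal muscle summed to over 1000 counts, among them replicate 2 of the 6-month and replicate 3 of the 12-month rapamycin males and replicate 1 of the Snell dwarfs. The labels name the 3 samples of a group biological replicates, and p-values measure the spread between them.

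Per length, Ccl5 was the most abundant member, with a median over libraries of 0.813 CPM per kilobase of exon. It was followed by Cd79a (0.793), Jchain (0.70), Cd79b (0.610), Nkg7 (0.408), Gzma (0.201), Cd2 (0.173), Cd3g (0.140), Cd3e (0.0901) and Cd8a (0.0601). Neighbours in this order did not separate in the range of their group means. Group means of Ccl5 ran from 0.193 to 3.53 CPM per kilobase, and even those of Cd8a, from 0.0243 to 0.212, reached into that range. Within each single group, however, the mean of Ccl5 lay above that of Cd8a, such as 0.193 against 0.0294 in acarbose males of 6 months. For 9 members the highest group mean was in the untreated females of 12 months, and for Cd8a in the acarbose males of 12 months. Cd3e shares 135 exon bases, 3.31% of its exon length, with the antisense gene Gm48719, and the strand of counting is not given in the sources used here, so a small part of its reads could come from that gene.

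Rapamycin changed none of the 10 members past an adjusted p of 0.05 at either age. At 6 months, 0 of 10 members passed in edgeR's quasi-likelihood test with Benjamini-Hochberg adjustment, against 0.412% of all genes tested. At 12 months, 0 of 10 passed, against 0% of all genes. The effects are means of the female and male differences from untreated mice of that sex and age, on the log2 scale ± SE. At 6 months 6 of 10 members lay above 0, with a median of 0.28. At 12 months all 10 lay below 0, with a median of -0.67, beside medians over all genes of 0.01 and -0.00. At an unadjusted p under 0.05 the members numbered 0 at 6 months and 3 at 12 months (Cd3g, Nkg7 and Gzma), and DESeq2 gave 0 and 0 adjusted and 0 and 3 unadjusted. Here and below, no share of all genes at an unadjusted p was computed, so such counts have no background to be judged against. Dose, duration and age all differ between these comparisons and cannot be told apart. All comparisons at one age share their untreated mice, and at 12 months 9 of 10 members also lay below 0 under CR and 9 of 10 under acarbose.

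**Figure D1:**
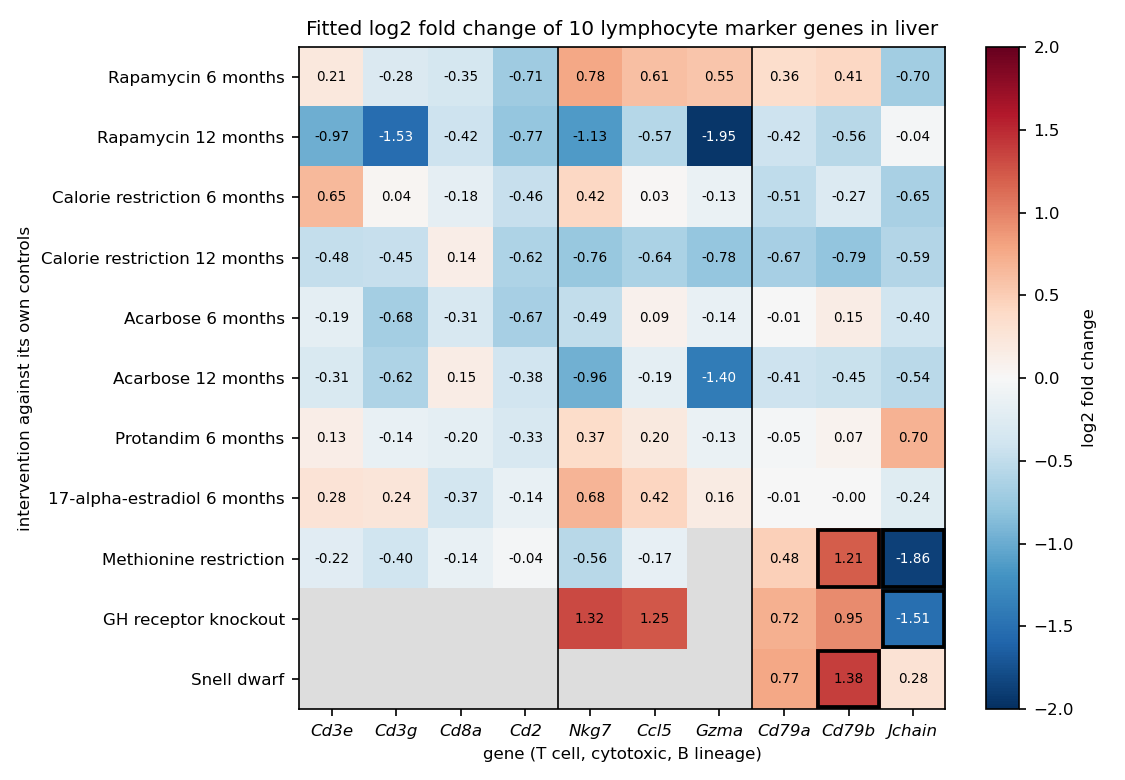
Fitted log2 fold change of the 10 members (columns, ordered as T cell, cytotoxic and B lineage genes) for each intervention against its own controls (rows). Black frames mark adjusted p under 0.05, and grey cells mark members that did not pass the filter on low counts. The rapamycin row of 12 months is below 0 throughout, and the CR and acarbose rows of 12 months, against the same controls, are so in 9 of 10 members each. The framed cells are Cd79b and Jchain in the male models.

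Among the T cell genes, Cd3g (ENSMUSG00000002033) had the lowest value under rapamycin at 12 months. Its normalised CPM in the treated males was 0, 0.113 and 0.266, against 0.256, 0.367 and 0.733 in untreated males. In females it was 0.445, 0.560 and 0.833 on rapamycin, against 2.90, 0.875 and 0.712. The groups overlapped in both sexes, and the largest control value came from the library that stood apart. The fitted change was -1.53 ± 0.56 (adjusted p = 0.904) at 12 months and -0.28 ± 0.42 (adjusted p = 0.805) at 6 months. Cd3e stood at -0.97 ± 0.48 and 0.21 ± 0.31, Cd8a at -0.42 ± 0.85 and -0.35 ± 0.71, and Cd2 at -0.77 ± 0.52 and -0.71 ± 0.39 at 12 and 6 months.

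Cd2 (ENSMUSG00000027863) was the 1 of 10 members that lay below all untreated females at 6 months, against 7.72% of all genes. Rapamycin females had 0.159, 0.193 and 0.110 CPM, each below the 0.752, 0.686 and 0.276 CPM of the untreated females. The female change was -1.86 ± 0.55, with an unadjusted p of 0.0023 and an adjusted p of 0.174 in edgeR, so it did not pass. It was the 1 member of 10 with an unadjusted p under 0.05 there. The share of all genes that passed the adjusted threshold in this comparison was 0.0742%. In males, Cd2 overlapped (0.418, 0.241 and 0.316 against 0.458, 0.117 and 0.132 CPM). The difference between the sexes was 2.30 (edgeR adjusted p = 0.840), and 0 of 10 members and 0% of all genes passed in it. In the males alone, 0 of 10 members and 0% of genes passed at 6 months.

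Of all members, the cytotoxic genes Gzma and Nkg7 had the rapamycin values farthest apart between the ages. Nkg7 stood at 0.78 ± 0.46 at 6 months and -1.13 ± 0.47 at 12 months, Ccl5 at 0.61 ± 0.41 and -0.57 ± 0.50, and Gzma at 0.55 ± 0.60 and -1.95 ± 0.66. The test of the difference itself, over both ages in one fit, gave -1.92 ± 0.67 for Nkg7 (unadjusted p = 0.00637, adjusted p = 0.297), -1.18 ± 0.64 for Ccl5 (adjusted p = 0.554) and -2.55 ± 0.96 for Gzma (adjusted p = 0.348) in edgeR. With Cd3e, 3 of 10 members had an unadjusted p under 0.05. At the adjusted threshold 0 of 10 members and 0% of all genes passed. DESeq2 also gave 3 unadjusted and 0 adjusted.

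Gzma (ENSMUSG00000023132) was nearly undetected in the treated males of 12 months, with 0, 1 and 0 counts. The untreated males of that age had 7, 2 and 5 counts. The ratio of summed counts over library totals was 0.0780, with an exact conditional binomial interval of 95% from 0.00184 to 0.512 that covers counting error only. The treated females had 0.668, 0.311 and 0.417 CPM and the untreated females 1.43, 0.566 and 0.274, which overlap. The fitted Gzma values at 12 months therefore rest in males on 1 count. In males, 0 of 10 members and 0.00733% of all genes passed the adjusted threshold, and 1 member (Gzma) had an unadjusted p under 0.05.

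At 12 months the member median under rapamycin was -1.18 in females and -0.11 in males, the median sex difference (male minus female) was 1.01, and 0 of 10 members passed in females, males or the sex difference (edgeR), where 0.0147%, 0.00733% and 0% of all genes passed. At an unadjusted p under 0.05 there were 3 members in females (Cd3e, Nkg7 and Cd79b) and 1 in the sex difference (Cd79b), and DESeq2 gave 0 adjusted and 2 and 1 unadjusted, with 5 adjusted values in females not computed. In females, 4 of 10 members did not overlap with the untreated mice and lay lower: Cd3e, Nkg7, Cd79a and Cd79b. The share of all genes that did so was 8.34%. Cd79b had 1.06, 0.747 and 1.25 CPM on rapamycin and 3.92, 2.78 and 2.19 CPM in untreated females (-1.53 ± 0.42, edgeR adjusted p = 0.304). In males it had 0.980, 1.13 and 1.73 CPM on rapamycin against 1.54, 0.524 and 0.846. Without replicate 1 of the untreated females, the median over the members was -0.38 in females, with 7 of 10 below 0, and -0.43 over both sexes, also with 7 of 10 below 0. The median sex difference turned to -0.18 without it. Without it, the median of the difference between the ages was -0.69 in place of -1.08. Without the libraries with other-tissue markers the medians were 0.40 at 6 months, -0.82 at 12 months (9 of 10 below 0) and -1.25 for the difference. At 12 months they were -0.31 in males and 0.73 for the sex difference.

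**Figure D2:**
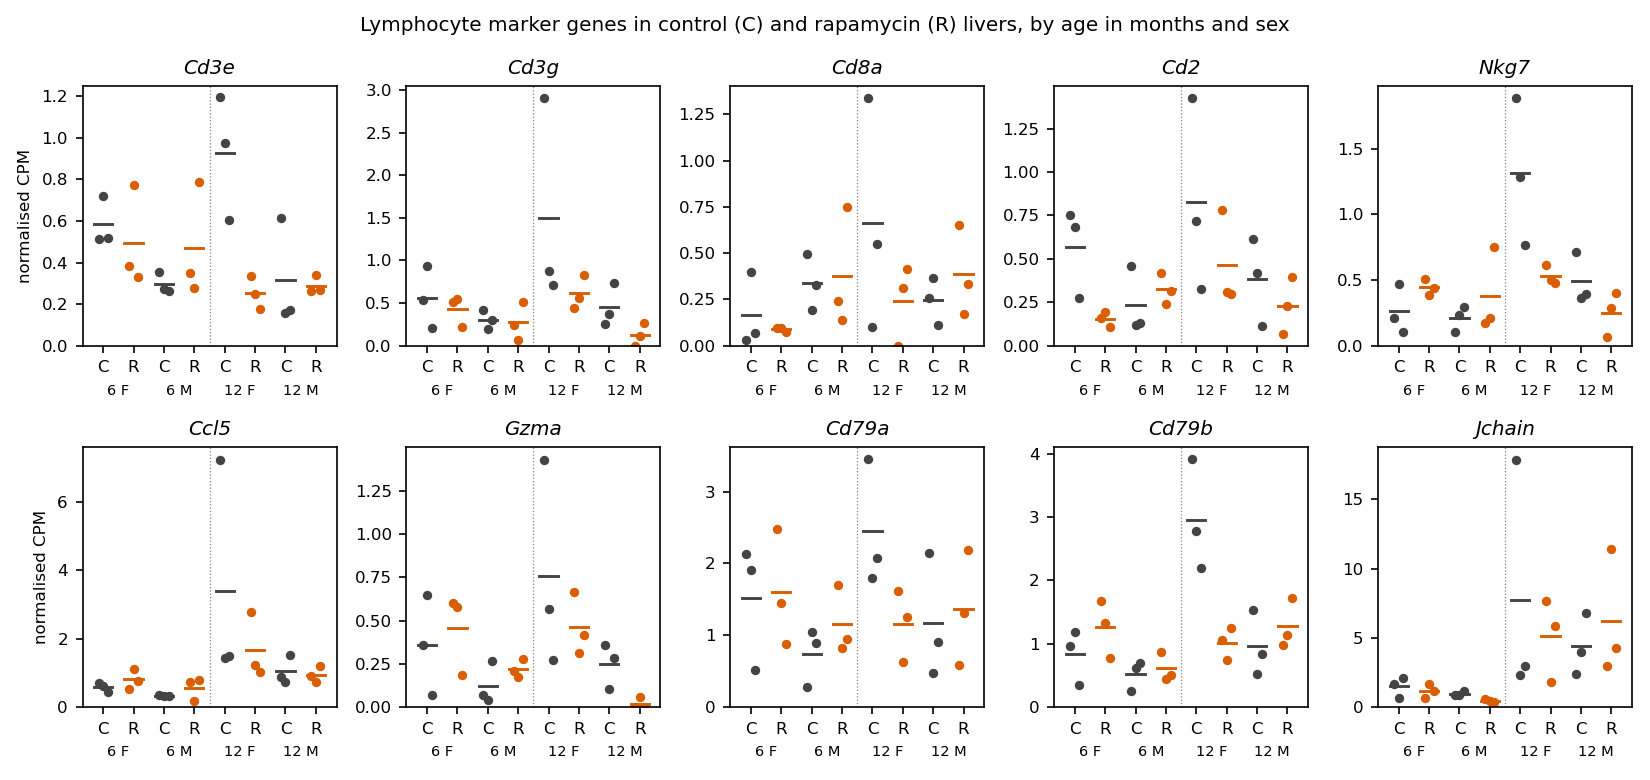
Normalised CPM of each member in single libraries (points) with the group mean (line) for untreated (C) and rapamycin (R) mice, by age in months and sex. One untreated female library of 12 months is the highest of its group in every panel, at 7.23 CPM for Ccl5 and 17.9 CPM for Jchain, while the 6-month groups overlap in most panels.

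The B lineage members stood at 0.36 ± 0.42 (Cd79a), 0.41 ± 0.46 (Cd79b) and -0.70 ± 0.50 (Jchain) under rapamycin at 6 months, and at -0.42 ± 0.47, -0.56 ± 0.30 and -0.04 ± 0.57 at 12 months. Jchain was the 1 of 10 members that lay below all untreated mice in 6-month males, against 5.51% of all genes, with 0.557, 0.448 and 0.395 CPM on rapamycin against 0.881, 0.856 and 1.15 CPM. Its male change of -1.05 ± 0.73 did not pass (edgeR adjusted p = 0.792). At 12 months Jchain ranged widely within groups, from 3.00 to 11.45 CPM in treated males and from 2.32 to 17.9 CPM in untreated females.

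Other lymphocyte genes, from lists that leave out the members, also gave 0 calls under rapamycin. As only 0.412% of all genes passed at 6 months and 0% at 12 months, these counts cannot bear on the result for the members. Of 21 other T cell genes tested at 6 months 0 passed, and of 16 at 12 months 0 passed, with medians of 0.07 and -0.94. For other B cell genes it was 0 of 24 and 0 of 21 (medians 0.25 and -0.45), for plasma cell genes 0 of 12 and 0 of 12 (0.00 and -0.14), and for other NK and cytotoxic genes 0 of 8 and 0 of 6 (0.27 and -0.28). At an unadjusted p under 0.05 the 4 lists had 1 gene each at 6 months and 8 T cell, 3 B cell, 3 plasma cell and 2 NK genes at 12 months. No share of all genes at that threshold was computed beside these counts. The lists were compared with the same untreated mice as the members, and list medians without replicate 1 of the 12-month untreated females were not computed. Interferon gamma response genes are induced by that cytokine, which activated T and NK cells release. Of 15 genes of that list all lay above 0 at 6 months (median 0.54) and 0 lay above 0 at 12 months (median -0.44), and 0 of 15 passed in the difference between the ages.

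With age, from 6 to 12 months in untreated mice, 4 of 10 members rose and 0 fell: Ccl5, Jchain, Nkg7 and Cd79b. Of all genes tested, 45.3% passed in either direction and 23.5% were higher. All 10 members lay above 0, with a median of 1.002 against 0.01 over all genes. The labels give no processing date, so age and any difference in handling between the 2 ages cannot be told apart.

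Ccl5 (ENSMUSG00000035042), the T cell chemokine, was among the 4. In females its CPM was 7.23, 1.44 and 1.48 at 12 months and 0.692, 0.614 and 0.448 at 6 months. In males it was 0.871, 0.734 and 1.52 at 12 months and 0.353, 0.311 and 0.330 at 6 months. The ages did not overlap in either sex, but no share of all genes without overlap between the ages was computed. The change was 2.09 ± 0.46 (edgeR adjusted p = 0.000256). Without replicate 1 of the 12-month females it was 1.45 ± 0.45 (adjusted p = 0.00794), and over all alternatives the adjusted p ran from 3.28e-05 to 0.00794.

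Jchain (ENSMUSG00000067149) rose by 2.28 ± 0.54 (edgeR adjusted p = 0.000608). Females had 17.9, 2.32 and 2.96 CPM at 12 months and 1.65, 0.686 and 2.13 at 6 months, and males 2.41, 3.98 and 6.77 against 0.881, 0.856 and 1.15. The ages separated in both sexes, again with no share of all genes computed beside it. The female mean rested on 1 library, and without that library the change was 1.48 ± 0.52 (adjusted p = 0.0194). Nkg7 rose by 1.77 ± 0.47 (adjusted p = 0.00181) and Cd79b by 1.37 ± 0.40 (adjusted p = 0.00491) in the same edgeR fit. The T cell genes did not pass, with Cd3g at 0.99 ± 0.46 (adjusted p = 0.0716) and Cd3e at 0.39 ± 0.37. Without replicate 1 of the 12-month females, 4 members still passed and the median was 0.53. Without replicate 2 of the 6-month females or replicate 3 of the 12-month females, 5 passed.

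Of other genes from the same cells, a part rose with age. Among other B cell genes 8 of 24 rose and 0 fell, led by Ighm (3.32 ± 0.56), Igkc (2.36 ± 0.53) and the Toll-like receptor homologue Cd180 (1.71 ± 0.44). Of 14 plasma cell genes 6 rose and 1 fell, with Ighg1 at 4.20 ± 0.83 and Igha at 2.28 ± 0.63. Reads of near-identical immunoglobulin genes may have been split among them, so single immunoglobulin values are less certain. Of 23 T cell genes 8 rose and 0 fell, with the receptor chain Trbc1 at 2.16 ± 0.50, Icos at 1.74 ± 0.43 and Cd4 at 1.45 ± 0.41. Of 9 NK and cytotoxic genes 4 rose and 1 fell, with the chemokine Ccl4 at 3.49 ± 0.86 and the receptor Klrk1 at 1.19 ± 0.35.

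Genes of other immune cells also passed. Of 16 pan-leukocyte genes 9 rose and 0 fell (Cd52 by 1.76 ± 0.32), of 16 Kupffer cell and macrophage genes 9 rose and 1 fell (Lyz2 by 1.05 ± 0.20), and of 15 interferon gamma response genes 13 rose and 0 fell. The chemokine list had 8 of 15 higher and 1 lower, with Cxcl9, a ligand that draws activated T cells, at 2.55 ± 0.41, and the T and NK cell cytokine Il15 at 2.53 ± 0.41. Summed Kupffer cell and macrophage markers ran from 423 to 587 CPM in females of 6 months and from 610 to 973 in females of 12 months. In males they ran from 333 to 448 and from 436 to 485. Of 32 genes named from the immune lists for age, 28 passed in every fit that left out 1 library, and Cd4 did not. Their part in the difference was not tested.

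Between the sexes, untreated males of 12 months had less Cd79b (ENSMUSG00000040592) than females. Males had 1.54, 0.524 and 0.846 CPM and females 3.92, 2.78 and 2.19, so the sexes did not overlap, which was so for 2 of 10 members (with Nkg7) and, in that direction, for 10.6% of all genes. The change was -1.61 ± 0.42 (edgeR adjusted p = 0.0385), the 1 member of 10 that passed, where 2.88% of all genes did. All 10 members lay below 0, with a median of -1.48 that was -0.72 without replicate 1 of the females. The Cd79b call was lost when replicate 1 or 2 of the females or replicate 2 or 3 of the males was left out, without a filter on low counts (adjusted p = 0.0559) and with only these groups fitted (0.113), and its adjusted p ran from 0.00877 to 0.208 over all alternatives. At 6 months 9 of 10 members lay below 0 in males (median -0.84), and 0 of 10 passed, against 4.98% of all genes, with 2 at an unadjusted p under 0.05 in edgeR and 1 in DESeq2. Cd3e and Ccl5 lay below all females in the 6-month males, 2 of 10 members against 10.8% of all genes, with Cd3e at 0.353, 0.272 and 0.264 CPM in males and 0.511, 0.722 and 0.517 in females.

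Among other genes at 12 months, Klrk1 (-1.92 ± 0.49), the lymphoid transcription factor Ikzf1 (-1.34 ± 0.33) and the leukocyte proteins Dock2 (-1.43 ± 0.35) and Rac2 (-1.19 ± 0.31) were lower in males in the edgeR fit. They were 1 of 6 NK and cytotoxic genes and 3 of 16 pan-leukocyte genes, with 0 higher. Of 16 T cell genes 0 passed (median -1.41), and of 21 B cell genes 1 was lower, the B cell transcription factor Spib at -1.74 ± 0.47. Of 12 plasma cell genes 1 was higher in males, Fkbp11 (1.398 ± 0.33), and 1 lower, Ighg3 (-3.34 ± 0.91). Of 11 genes named from the immune lists here, 1 (Gbp2, at -2.08 ± 0.39) passed in every fit that left out 1 library.

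Under the other treatments of UM-HET3 mice, 0 of 10 members passed in the mean over the sexes. DESeq2 gave no adjusted value for 1 member each under acarbose and 17-alpha-estradiol at 6 months and for all 10 under Protandim. The share of all genes that passed in edgeR was 26.1% for CR, 6.16% for acarbose, 1.38% for Protandim and 0.385% for 17-alpha-estradiol at 6 months, and 13.8% for CR and 0.0587% for acarbose at 12 months. CR at 6 months thus changed 3873 of 14816 tested genes and 0 members, with member values from -0.65 ± 0.49 (Jchain) to 0.65 (Cd3e). Female and male replicate 2 on CR at 6 months held skeletal muscle markers, and the member median was -0.16 with and -0.07 without the libraries with other-tissue markers. At an unadjusted p under 0.05 there was 1 member for CR at each age, 2 for acarbose at 12 months and 0 in the others, and DESeq2 gave 0 adjusted with the same unadjusted counts. At 12 months the member medians were -0.63 for CR and -0.43 for acarbose, and -0.31 and -0.17 without replicate 1 of the untreated females.

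Cd79b was the one member that passed within a sex. Females on CR at 12 months had 0.750, 0.625 and 1.52 CPM, each below the 3.92, 2.78 and 2.19 CPM of untreated females, which was so for 1 of 10 members and 13% of all genes. The change was -1.60 ± 0.42 (edgeR adjusted p = 0.0303), 1 of 10 members against 4.72% of all genes. It was lost when CR replicate 1 or 2 or untreated replicate 1 or 2 was left out and with only these groups fitted, and its adjusted p ran from 0.0085 to 0.152 over all alternatives. CR replicate 1 held 3090 counts of adrenal markers, and without the libraries with other-tissue markers the change was -1.43 ± 0.47 (adjusted p = 0.107). In the mean over the sexes Cd79b stood at -0.79 ± 0.30 (adjusted p = 0.0894) and passed when CR female replicate 3 or untreated male replicate 2 was left out. In the same females Spib was lower (-1.86 ± 0.48), while Vpreb3, also of the B cell list, was higher (4.38 ± 0.64). Of 21 B cell genes these 2 passed. Without CR replicate 1, Spib stood at -1.75 ± 0.57 (adjusted p = 0.10) and did not pass, and Vpreb3 at 4.75 ± 0.62 (adjusted p = 0.00108).

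Acarbose separated several members in one sex without a call. In the other sex of each age 8 of 10 members lay above 0, with medians of 0.30 in males of 12 months and 0.49 in females of 6 months. In females of 12 months, 5 of 10 members lay below all untreated females (Nkg7, Ccl5, Gzma, Cd79a and Cd79b), against 4.82% of all genes. In males of 6 months 3 of 10 did so (Cd3e, Cd3g and Ccl5), against 8.05% of genes. Nkg7 in those males had 0, 3 and 1 counts, against 3, 6 and 9 in the untreated males. Acarbose male replicate 3 held 5154 counts of pancreas markers, and without it the male median was -0.79 (9 of 10 below 0) in place of -0.84 (10 of 10). On 17-alpha-estradiol, 3 of 10 members (Cd3e, Nkg7 and Ccl5) lay above all untreated females at 6 months, against 11.8% of genes. The 12-month female comparisons of rapamycin, CR and acarbose share 3 untreated libraries, so their values are not independent of each other. In each of them 10 of 10 members lay below 0. The comparisons of untreated mice between the sexes at 12 months and between the ages use the same 3 libraries. For Cd79b the mean was 2.96 CPM in these untreated females and 0.965 to 1.43 CPM in the other groups of 12 months. Its differences at 12 months therefore all involve this 1 high group.

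Methionine restriction moved B lineage members in opposite directions: Cd79b rose and Jchain fell. Of 9 members tested these 2 passed, against 3.8% of all genes. Gzma did not pass the filter on low counts, with 7, 8 and 2 counts against 0, 8 and 3. The 6 T cell and cytotoxic members tested ran from -0.56 ± 0.42 (Nkg7) to -0.04 ± 0.41 (Cd2), and 0 of them passed.

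Cd79b had 1.52, 1.34 and 1.65 CPM under restriction and 0.620, 0.684 and 0.645 CPM in controls, with SDs of 0.152 and 0.0322 CPM (n = 3). Every restricted library lay above every control, which was so for 1 of 9 members and for 12.6% of all genes. The change was 1.21 ± 0.25 (edgeR adjusted p = 0.0396). Its partner in the B cell receptor, Cd79a, stood at 0.48 ± 0.29 (adjusted p = 0.428). Jchain had 1.21, 1.05 and 0.874 CPM under restriction and 3.02, 3.15 and 5.27 CPM in controls, a mean of 1.05 ± 0.170 against 3.81 ± 1.27 CPM (SD, n = 3). The groups did not overlap, as for 12.3% of all genes in that direction, and the change was -1.86 ± 0.29 (edgeR adjusted p = 0.0149).

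The Cd79b call was lost when any 1 library other than control replicate 1 was left out, and its adjusted p ran from 0.00986 to 0.138 over all alternatives. The Jchain call was lost without any 1 of the 3 restricted libraries (adjusted p from 0.0503 to 0.0780), and its adjusted p ran from 7.95e-07 to 0.0780 over all alternatives. Without control replicate 3, which had the most Jchain, the change was -1.56 ± 0.26 (adjusted p = 0.0485).

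Among other lymphocyte genes of the restricted mice few passed. Of 13 plasma cell genes 2 fell and 0 rose, Ighg2c (-2.08 ± 0.39) and the secretory pathway gene Fkbp11 (-0.88 ± 0.16). Of 22 B cell genes 1 fell, the light chain gene Igkc (-1.44 ± 0.25), and the list median was 0.35. Other immunoglobulin genes did not pass, among them Ighm at -1.32 ± 0.44 and Ighd at 0.62 ± 0.31. Of 18 T cell genes 1 fell, the receptor kinase Zap70 (-2.15 ± 0.27), and of 15 interferon gamma response genes 3 fell (Gbp7, Tap1 and Gbp3, at -0.90 ± 0.17, -0.77 ± 0.16 and -1.12 ± 0.25). Of 8 genes named from the immune lists for this comparison, 1 (Zap70) passed in every fit that left out 1 library. Summed Kupffer cell and macrophage markers ran from 558 to 1130 CPM under restriction and from 463 to 744 in controls, and their part was not tested.

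**Figure D3:**
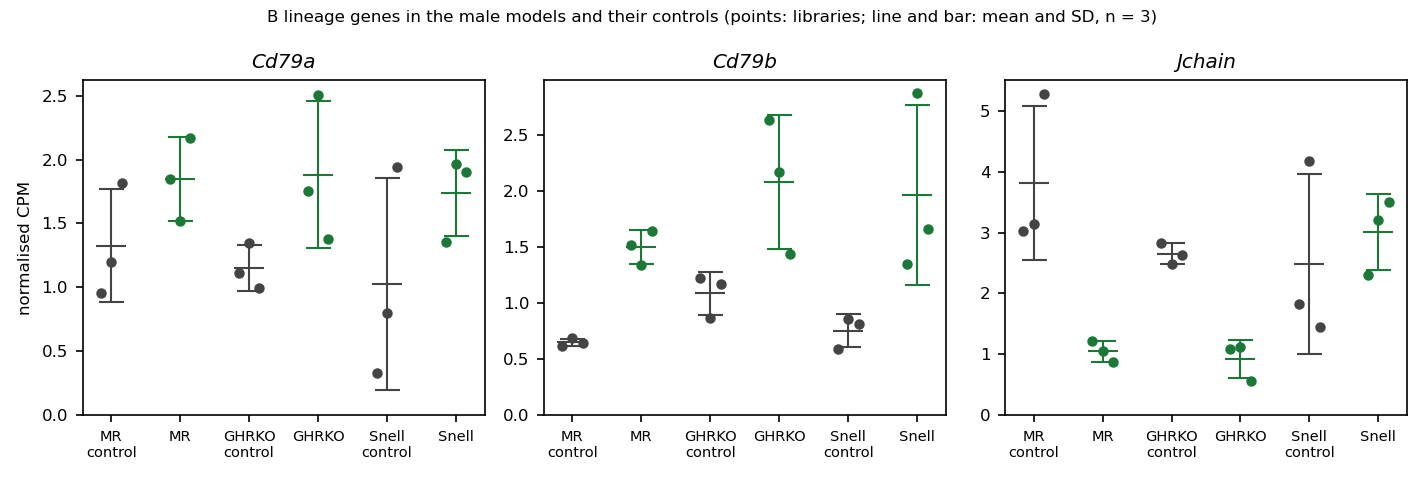
Normalised CPM of the 3 B lineage members in the male models and their controls (points are libraries, lines and bars the mean and SD, n = 3). Jchain is lower without overlap in the restricted and the knockout mice, at means of 1.05 against 3.81 and 0.920 against 2.65 CPM, and overlaps in the Snell dwarfs; Cd79b is higher without overlap in all 3 models.

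In the receptor knockout, Jchain fell, while the other members had fitted values above 0 but did not pass in the main fit. Jchain had 1.08, 1.11 and 0.565 CPM in knockouts and 2.83, 2.48 and 2.64 CPM in controls, a change of -1.51 ± 0.32 (edgeR adjusted p = 0.0141). It was the 1 of 5 members tested that passed, against 14.8% of all genes. It was also the 1 of 5 that lay below all controls, against 20.1% of genes. The call was lost without control replicate 1 (adjusted p = 0.0511), and the adjusted p ran from 0.00327 to 0.0511 over all alternatives.

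The other 4 members tested did not overlap with controls and lay higher, against 17.5% of all genes that did so. Nkg7 had 10 to 13 counts in knockouts and 0 to 9 in controls, and Ccl5 21 to 45 against 5 to 22. Both thus passed the filter on low counts through the knockouts, where they were high. The count of members without overlap is therefore partly set by the filter and is not comparable with that share. Cd79b had 2.63, 2.17 and 1.44 CPM against 1.22, 0.864 and 1.17 (0.95 ± 0.33, adjusted p = 0.0837 in edgeR). Cd79a stood at 0.72 ± 0.33 and Nkg7 at 1.32 ± 0.70. Ccl5 had 1.96, 2.51 and 1.32 CPM against 0.945, 1.19 and 0.293, and its change of 1.25 ± 0.47 did not pass (edgeR adjusted p = 0.102). Of the 5 members under the filter, Cd3e, Cd3g, Cd2 and Gzma lay above all controls and Cd8a overlapped. These rest on few counts, and no share over other genes under the filter was computed beside them. In a fit without the filter they ran from 0.89 ± 0.71 (Cd3e) to 1.38 ± 0.70 (Gzma), and 0 of them passed. Control replicate 3 had 0 counts of Cd3g, Nkg7 and Gzma, and without it Nkg7 stood at 0.76 ± 0.49 and Ccl5 at 0.85 ± 0.39.

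Other immune genes in the knockouts were mixed. Of 11 chemokine list genes 3 rose and 0 fell: Cxcl10 (1.52 ± 0.31), Il15 (1.31 ± 0.27) and the B cell homing receptor Cxcr5 (1.57 ± 0.43). Of 7 T cell genes the costimulator Icos rose (1.88 ± 0.45) and Zap70 fell (-3.13 ± 0.34), and of 13 B cell genes Vpreb3 rose (1.78 ± 0.49). Of 7 plasma cell genes 2 fell, Derl3 (-4.13 ± 0.96) and Fkbp11 (-1.03 ± 0.29), both of the endoplasmic reticulum. Of 16 genes named from the immune lists for the knockout, 7 passed in every fit that left out 1 library, among them Zap70 and Cxcl10. Of 16 Kupffer cell and macrophage genes 4 rose and 1 fell, and their summed level was 482 to 832 CPM in knockouts and 368 to 561 in controls, a part that was not tested.

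In Snell dwarfs Cd79b rose, and Jchain did not separate. Cd79b had 1.35, 2.88 and 1.66 CPM in dwarfs and 0.588, 0.860 and 0.814 CPM in controls, a change of 1.38 ± 0.38 (edgeR adjusted p = 0.0353). It was 1 of 3 members tested, against 20.1% of all genes, and also the 1 of 3 that lay above all controls, against 18.5%. The call was lost when any 1 library other than dwarf replicate 1 was left out. Dwarf replicate 1 held 5117 counts of skeletal muscle markers, and without it the change was 1.58 ± 0.38 (adjusted p = 0.0240), with a range of 0.0240 to 0.132 over all alternatives. Jchain had 2.31, 3.21 and 3.51 CPM in dwarfs and 1.83, 4.18 and 1.44 in controls (0.28 ± 0.40), and Cd79a stood at 0.77 ± 0.52.

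The 7 T cell and cytotoxic members did not pass the filter in the dwarfs. Cd3g had 15, 8 and 5 counts in dwarfs and 2, 2 and 2 in controls, and Ccl5 27, 10 and 7 against 6, 4 and 2. Cd3g, Nkg7 and Ccl5 lay above all controls, but no share over other genes under the filter was computed beside this. Without the filter Cd3g stood at 2.07 ± 0.69 (edgeR adjusted p = 0.0597) and Ccl5 at 1.74 ± 0.62 (adjusted p = 0.0811), and 0 of the 7 passed. Of 8 plasma cell genes 2 rose, the antibody genes Igha (2.34 ± 0.43) and Ighg2b (2.44 ± 0.49), and 2 fell, Fkbp11 (-1.10 ± 0.29) and Derl3 (-1.39 ± 0.39). Of 10 B cell genes 1 fell, Ighm (-1.63 ± 0.31). Of 5 T cell genes Thy1 rose (2.22 ± 0.56) and Zap70 (-4.20 ± 0.27) and Cd4 (-2.20 ± 0.50) fell. In the dwarfs and in the knockouts Zap70 passed the filter, which Cd3e, Cd3g, Cd8a and Cd2 did not. It fell where Cd3g, on few counts and without a call, lay above all controls. In the dwarfs Cd3e, Cd8a and Cd2 overlapped with controls, and whether Zap70 departs from the T cell members was not tested. Which liver cells the reads of Zap70, Fkbp11 and Derl3 came from was not tested. The lymphotoxin gene Ltb (2.12 ± 0.60) and Il15 (1.49 ± 0.33) rose, and of 15 interferon gamma response genes 1 rose and 7 fell. Of 16 genes named from the immune lists for the dwarfs, 7 passed in every fit that left out 1 library, among them Igha, Ighg2b, Ighm and Zap70. Differences between the 3 male models were not tested.

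Within groups, the members varied together to different degrees. Over the 78 libraries, as deviations of log2 CPM from the group mean, the highest Pearson r of any member pair was 0.78, between the receptor partners Cd79a and Cd79b. Jchain, the plasma cell gene, followed them less closely, at 0.24 for Cd79a and 0.22 for Cd79b, and had 0.39 with Ccl5. Pairs of cytotoxic genes had a median r of 0.47, T cell with cytotoxic genes 0.39, T cell pairs 0.32, and T cell with B lineage genes and cytotoxic with B lineage genes 0.19 each. These values describe libraries whose genes share depth and scaling, in low counts. They include replicate 1 of the untreated females and replicate 3 of the acarbose males of 12 months, each the highest of its group for every member. Values of the pairs without these libraries were not computed.

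**Figure D4:**
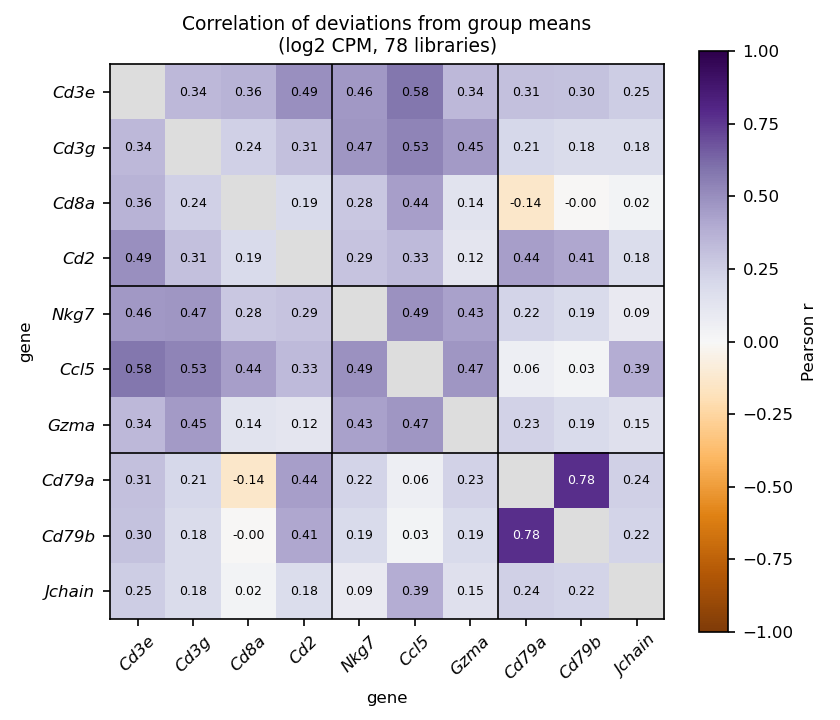
Pearson r between members over 78 libraries, for log2 CPM as deviations from the group mean, with lines between T cell, cytotoxic and B lineage genes. The strongest square is Cd79a with Cd79b at 0.78, and Cd8a with Cd79a is the lowest at -0.14.

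Outside the members, 12340 genes were ranked by their correlation with the mean deviation of a member group. The 6 most like the T cell and cytotoxic members were the MHC class II invariant chain Cd74 (r = 0.71), Rasal3 (0.68), the leukocyte antigen Cd52 (0.67), the class II pseudogene H2-Ea-ps (0.67), the interleukin receptor chain Il2rb (0.67) and Kbtbd11 (0.63). The 6 most like the B lineage members were Igkc (0.75), Ighd (0.72), Cd37 (0.68), Pou2af1 (0.60), Coro1a (0.58) and Iglc2 (0.57), of which Igkc, Ighd and Iglc2 encode immunoglobulin chains and Pou2af1 a B cell coactivator. Spearman's rho ran from 0.59 to 0.69 for the first 6 and from 0.53 to 0.73 for the second 6. Without the 2 libraries farthest from the median (replicate 3 of the 12-month acarbose males and replicate 1 of the 12-month untreated females), r ran from 0.57 (Kbtbd11) to 0.67 (Il2rb) for the first 6 and from 0.52 (Coro1a) to 0.72 (Ighd) for the second 6.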

How the data were processed

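Frozen liver was extracted with a PureLink kit and libraries were made with a TruSeq RNA v2 kit, per the labels' protocols. Per the submitters' processing notes, STAR 2.5.2b, Trimmomatic 0.32, bcl2fastq 1.8.4 and featureCounts 1.5 were used with GRCm38. Alignment settings, strand of counting and annotation release are not given in the sources used here. The deposited table held raw counts per gene and library.

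Counts were fitted with edgeR 4.0.16 (R 4.3.3) on all genes, in 5 separate sets (6 months, 12 months and each male model) and in a joint fit of both ages for differences between ages. Genes were kept by filterByExpr, which left 12528 to 15159 genes, TMM set the scaling, and the robust quasi-likelihood fit had 1 coefficient per group. The threshold was an adjusted p of 0.05 (Benjamini-Hochberg, over all genes tested). The SE came from the F statistic. Normalised CPM used TMM factors over all 78 libraries, and log2 CPM a prior count of 2. Members and gene lists were chosen with earlier results of these data known. Named genes were all members, up to 4 genes of each list with the smallest adjusted p in rapamycin comparisons and where a member passed, and the 6 genes most like each member group. Alternatives were RLE size factors, no filter, a replicate block, only the groups compared, DESeq2 1.42.0, leaving out each library, and leaving out the 9 libraries with over 1000 counts of other-tissue markers. No replicate pair agreed within counting noise (lowest chi-square per degree of freedom 23.2 over 78 pairs). Same-numbered libraries deviated together (every r over 0.1) in 1 of 19 comparisons, CR in males at 12 months, where no member passed with or without a replicate block. The steps were tested on simulated data. The result of 1 named gene is not reported here.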

Additional observations from a re-analysis of the deposited data

How the results depend on the processing

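Member calls were recomputed with a replicate block, with DESeq2, with RLE size factors, with every gene kept, with only the groups compared, without the libraries with other-tissue markers and without each library in turn. With a replicate block, 1 member passed under methionine restriction in place of 2 (Cd79b had an adjusted p of 0.0668) and 2 in the receptor knockout in place of 1 (Ccl5 at 1.32 ± 0.37, adjusted p = 0.0457). The block moved no other count of members that passed. Replicate numbers are not shown to pair these libraries. Between the sexes in untreated mice of 12 months, 0 members passed in place of 1 without a filter and with only the groups compared. Over the other effects within a sex and between sexes, 0 passed in place of 1 without the libraries with other-tissue markers and with only the groups compared. The other counts of members that passed did not move by over 1.5 times under these settings.

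Leaving out 1 library gave 0 to 2 members under methionine restriction, 0 to 1 in the receptor knockout, in the Snell dwarfs, for CR at 12 months over both sexes and between the sexes at 12 months, and 4 to 5 for age. It gave 0 in every rapamycin comparison. The cause of these changes was not tested. Medians of 5 to 40.5 counts per library limit precision: SEs of single members under rapamycin ran from 0.31 to 0.71 at 6 months and from 0.30 to 0.85 at 12 months on the log2 scale.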
